A study of Sus scrofa with 6 samples.

Results

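RNA of 10 non-collagen genes of the cartilage matrix was followed in cultured pig ear cartilage cells, among 19670 gene models in all. The genes were COMP, the matrilins MATN1, MATN2, MATN3 and MATN4, the lubricin gene PRG4, CILP, CILP2, CYTL1 and SCRG1. They were chosen by name, and each was found as 1 gene model, 8 by the symbol of the gene identifier and 2 (PRG4 and SCRG1) by protein name in the deposited annotation. The gene name table gives the symbol SCRG1 to another identifier, not analysed here, so values printed as SCRG1 rest on the protein name alone. The cells came from the external ear of 1 pig aged 4 months, a cross of Duroc with Landrace x Large White that carried wild-type PPARD. They were kept for 24 h with GW0742, a compound that activates the nuclear receptor PPARD, or with the solvent DMSO, with 3 libraries in each group. The study asks how PPARD bears on cartilage growth in the ear, and the dose of GW0742 is not given in the sources used here.

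The proteins of these genes sit between the collagen fibrils and the aggrecan gel of cartilage. COMP is a pentameric thrombospondin, and the matrilins are multi-subunit proteins built around von Willebrand factor A domains. Both bind type II and type IX collagen and tie fibrils to proteoglycans. MATN1 and MATN3 are known as largely cartilage-restricted, with MATN1 described as abundant in tracheal, nasal and ear cartilage, whereas MATN2 and MATN4 are made in many connective tissues. PRG4 coats articular surfaces, CILP is known from the middle layer of articular cartilage, and CYTL1 and SCRG1 are small secreted proteins linked to chondrogenesis.

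Depth ran from 13133894 to 16913742 estimated reads a library, which left 14146 models with enough reads to test. All cells came from the same animal, and no label says whether the replicates were cultured apart. The p-values below therefore reflect variation among 6 libraries that could be technical. The agonist response was present: ANGPTL4, a known PPARD target, stood at 70.7 RPKM in GW0742 libraries and 7.92 RPKM in DMSO libraries (edgeR adjusted p = 0.000193), and 3 of 4 genes chosen as a check of the agonist passed. RPKM is a read count scaled to library depth and to a length per gene model. For the 10 genes the length implied by reads and RPKM was the same in every library. It differed by over 1.1-fold between libraries for 4.23% of 13068 models, among them THBS1, ITGB1 and several marker genes, so for such genes the deposited RPKM can move with length as well as with reads. Of the markers that define cartilage cells, COL2A1 was present at 108 RPKM with GW0742 and 114 RPKM with DMSO, while MATN1 stayed under 0.1 RPKM in every library. COL11A1, ACAN and SOX9, also listed, averaged 138, 90.5 and 9.43 RPKM over the 6 libraries. HAPLN1 and COL9A1 averaged 1.92 and 0.478 RPKM. CNMD, the chondromodulin gene, was listed at 0 in 4 of the 6 libraries. COL1A2, the type I collagen chain of fibroblastic cells, stood at 6416 RPKM with GW0742 and 7108 RPKM with DMSO. Of the other fibroblast or perichondrium markers found, VIM, COL3A1 and THY1 averaged 6882, 938 and 275 RPKM over the 6 libraries. POSTN averaged 0.556 RPKM. In bulk RNA a smaller share of cells of 1 type and less RNA per cell cannot be told apart.

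COMP dominated the set. Its level was 39.7, 33.9 and 33.7 RPKM in GW0742 replicates 1, 2 and 3, against 31.5, 33.3 and 35.9 RPKM in DMSO replicates 1, 2 and 3. The groups overlapped, and COMP ranked 2240 among the 19670 models by mean RPKM. COMP made up 68.0% ± 0.98 of the summed RPKM of the 10 genes with GW0742 and 70.5% ± 1.47 with DMSO (SD, n = 3 each). MATN4 followed at 6.24 ± 0.76 RPKM with GW0742 and 4.56 ± 0.49 RPKM with DMSO. CILP2, a paralog of CILP, stood at 4.39 ± 0.60 RPKM with GW0742 and 4.61 ± 0.14 RPKM with DMSO.

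Below these came MATN2 at 2.94 ± 0.48 RPKM with GW0742 and 2.12 ± 0.16 RPKM with DMSO, and MATN3 at 1.37 ± 0.26 RPKM with GW0742 and 1.29 ± 0.26 RPKM with DMSO. CYTL1, SCRG1, CILP, PRG4 and MATN1 had means over the 6 libraries of 0.93, 0.46, 0.15, 0.079 and 0.069 RPKM. In this order COMP was apart from MATN4, with a 6.42-fold gap between means over 6 libraries, and CILP2 was apart from MATN2. MATN2 was apart from MATN3 and CILP from PRG4, in that the ranges of the 6 libraries did not overlap. The other neighbours in the order overlapped in range: MATN4 with CILP2, MATN3 with CYTL1, CYTL1 with SCRG1, SCRG1 with CILP, and PRG4 with MATN1.

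**Figure D1:**
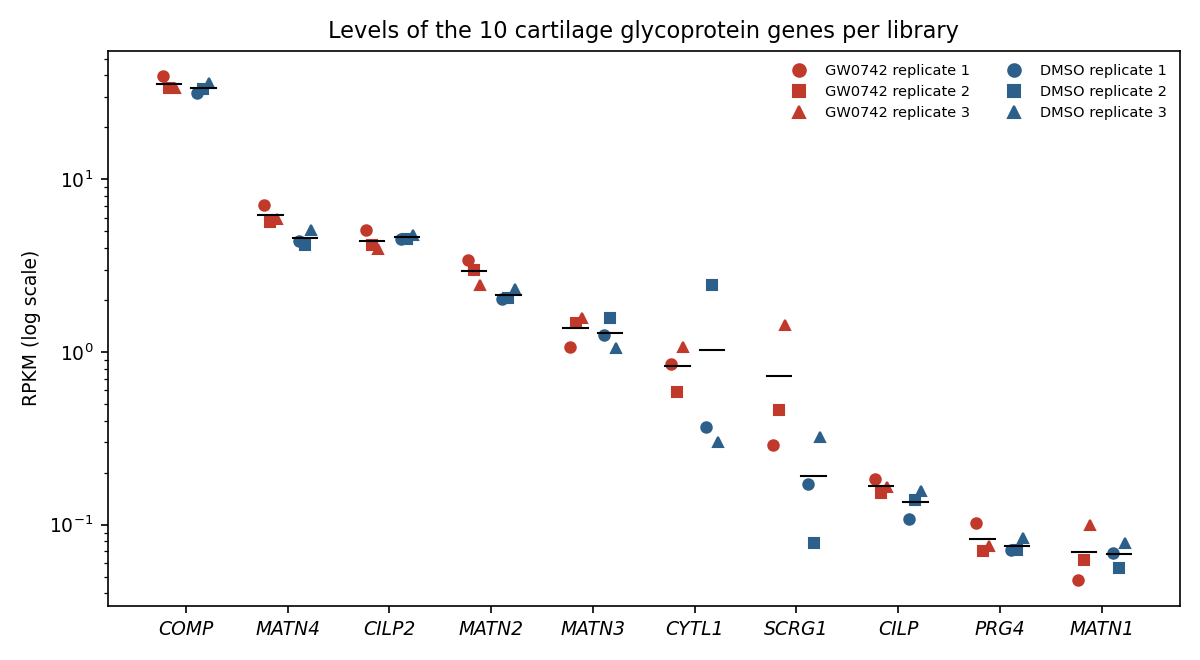
RPKM on a log axis (vertical) for the 10 genes (horizontal), ordered by mean over 6 libraries; each point is 1 library, GW0742 in red to the left of DMSO in blue, and lines mark group means. COMP lies between 31.5 and 39.7 RPKM, MATN1 lies under 0.1 RPKM in every library, and CYTL1 and SCRG1 each have 1 library above the others of its group.

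The 4 matrilins were led by MATN4 and not by the cartilage-restricted members. MATN4 held 58.6% ± 2.69 of the summed matrilin RPKM with GW0742 and 56.6% ± 3.33 with DMSO (SD, n = 3 each), and MATN2 held 27.6% ± 2.74 with GW0742 and 26.4% ± 0.52 with DMSO. MATN3, an adaptor of collagen fibrils whose human mutations cause epiphyseal dysplasia, held 13.1% ± 3.42 with GW0742 and 16.2% ± 3.84 with DMSO. MATN1 held 0.67% ± 0.30 with GW0742 and 0.84% ± 0.11 with DMSO. For each of the 4 the shares of the groups overlapped. The summed matrilin level was 11.64, 10.21 and 10.04 RPKM in GW0742 replicates 1, 2 and 3, against 7.74, 7.84 and 8.54 RPKM in DMSO replicates 1, 2 and 3. The sums of the groups did not overlap. MATN4 and MATN2 made up most of each sum, and their own groups did not overlap, while those of MATN3 and MATN1 did. Groups that did not overlap were seen in 23.4% of all tested models, and the sum carries no test.

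None of the 10 genes passed the test of GW0742 against DMSO. Of the 6 that had enough reads (COMP, MATN2, MATN3, MATN4, CILP and CILP2), 0 passed at an adjusted p under 0.05 in edgeR's quasi-likelihood test, against 0.262% of all 14146 tested models (0.184% higher and 0.0778% lower). At an unadjusted p under 0.05 there were 2, MATN4 and MATN2, both higher, against 16.8% of all models (7.93% higher and 8.91% lower). DESeq2 called 0 of the 6, against 3.12% of models (1.46% higher and 1.65% lower). The log2 fold changes of the 6 ran from -0.10 to 0.43 with a median of 0.15, beside a median of -0.0015 over all tested models, and 5 were above 0. Each of the 6 passed the filter on low counts in both groups, except that CILP had 3 GW0742 libraries and 2 DMSO libraries over its cutoff of 0.651 CPM, a read count scaled to depth alone.

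COMP did not differ beyond the spread between libraries. Its log2 fold change, GW0742 over DMSO, was 0.06 ± 0.09 (SE, edgeR adjusted p = 0.766), with a 95% interval of the fold from 0.906 to 1.21. These libraries did not tell apart folds within that interval. The highest value came from GW0742 replicate 1, and without it the log2 fold change was -0.024 (edgeR adjusted p = 0.921).

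MATN4 and MATN2 were the members whose groups did not overlap, all 3 GW0742 libraries being above all 3 DMSO libraries; 23.4% of all tested models had groups that did not overlap, 11.4% with GW0742 higher. MATN4, a matrilin of cartilage and of many other tissues, had 7.12, 5.69 and 5.92 RPKM in GW0742 replicates 1, 2 and 3, against 4.39, 4.17 and 5.11 RPKM in DMSO replicates 1, 2 and 3. The gap between the lowest GW0742 and the highest DMSO library was smaller than the range within either group. The fold was 1.34 (95% interval 1.07 to 1.68, log2 0.43 ± 0.14 SE), and edgeR gave an adjusted p of 0.195, which did not pass. Over 12 alternative fits its log2 value ranged from 0.32 to 0.52, and its adjusted p from 0.187 to 0.457.

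MATN2, a filament-forming matrilin of loose connective tissue and basement membrane zones, had 3.40, 2.97 and 2.45 RPKM in GW0742 replicates 1, 2 and 3. It had 2.01, 2.05 and 2.31 RPKM in DMSO replicates 1, 2 and 3. GW0742 replicate 3 lay closer to DMSO replicate 3 than to GW0742 replicate 1. The fold was 1.35 (95% interval 1.01 to 1.81, log2 0.43 ± 0.19 SE, edgeR adjusted p = 0.284), on 51 to 84 estimated reads per library. Over the same 12 alternative fits the adjusted p of MATN2 ranged from 0.235 to 0.551.

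MATN3 did not pass either. It had 1.07, 1.48 and 1.57 RPKM in GW0742 replicates 1, 2 and 3, against 1.26, 1.56 and 1.05 RPKM in DMSO replicates 1, 2 and 3. Libraries of both groups were interleaved, and GW0742 replicate 1, the highest library for MATN4 and MATN2, was the lowest of its group for MATN3. The log2 fold change was 0.08 ± 0.26 (SE, edgeR adjusted p = 0.906), and with 22 to 38 estimated reads per library the 95% interval of the fold ran from 0.707 to 1.58.

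The order of MATN4 and CILP2 was not the same in both groups. Within a library the ratio of MATN4 to CILP2 RPKM, which does not depend on library scaling, was 1.40, 1.36 and 1.51 in GW0742 replicates 1, 2 and 3, against 0.971, 0.920 and 1.07 in DMSO replicates 1, 2 and 3. MATN4 thus stood above CILP2 in all 3 GW0742 libraries and in 1 of the DMSO libraries. MATN4 was at 17.4% ± 0.59 of the COMP level with GW0742 and 13.6% ± 0.92 with DMSO (SD, n = 3 each). These ratios were singled out after their values were seen and carry no test.

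**Figure D2:**
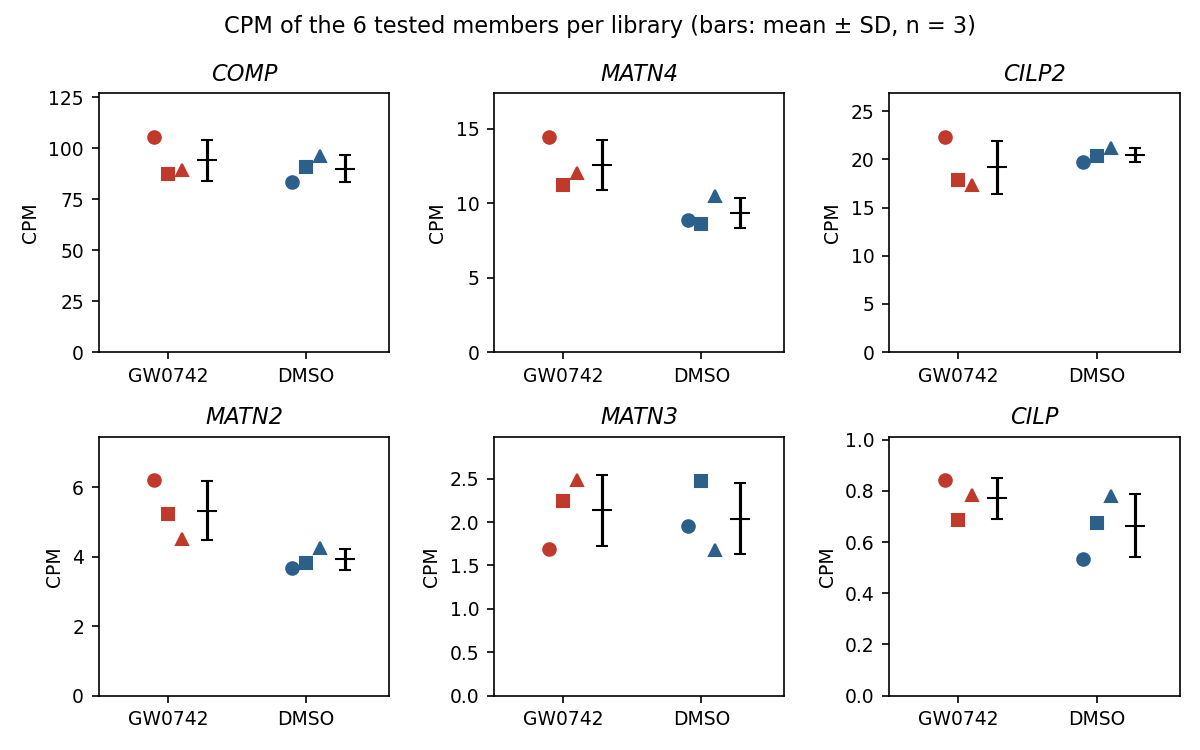
CPM scaled by TMM (vertical, from 0) of the 6 tested genes in each library, GW0742 left and DMSO right; points are libraries (circle, square and triangle for replicates 1, 2 and 3) and bars are mean ± SD, n = 3. The groups are apart in MATN4 and MATN2 and overlap in COMP, CILP2, MATN3 and CILP.

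CILP2 and CILP, the pair of cartilage intermediate layer proteins, were at very unequal levels. CILP2 held 96.3% ± 0.31 of the summed RPKM of the pair with GW0742 and 97.2% ± 0.45 with DMSO (SD, n = 3 each). CILP2 had 5.07, 4.18 and 3.93 RPKM in GW0742 replicates 1, 2 and 3, against 4.53, 4.53 and 4.77 RPKM in DMSO replicates 1, 2 and 3. The GW0742 libraries lay on both sides of the DMSO libraries. The log2 fold change was -0.10 ± 0.12 (SE, edgeR adjusted p = 0.720), and the 95% interval of the fold ran from 0.780 to 1.12. CILP2 lies on the same chromosome as COMP in the RefSeq assembly Sscrofa11.1, with 23 coding genes between them.

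CILP, an antagonist of TGF-beta and IGF1 signalling in cartilage, had 0.183, 0.152 and 0.165 RPKM in GW0742 replicates 1, 2 and 3. It had 0.108, 0.138 and 0.158 RPKM in DMSO replicates 1, 2 and 3, so the groups overlapped. These values rest on 9 to 13 estimated reads per library. The log2 fold change was 0.21 ± 0.28 (SE, edgeR adjusted p = 0.802), and the 95% interval of the fold, from 0.741 to 1.81, was wide.

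The other 4 genes had too few reads to test. MATN1 had 1, 2 and 2 estimated reads in GW0742 replicates 1, 2 and 3, against 2, 1 and 2 in DMSO replicates 1, 2 and 3. Every library was below 3 reads, the floor used here, so no fold is given for MATN1. PRG4 had 6, 5 and 5 reads in GW0742 replicates 1, 2 and 3, against 5, 4 and 6 reads in DMSO replicates 1, 2 and 3. The ratio of PRG4 read shares was 1.15 (exact binomial 95% interval 0.534 to 2.50, counting error only).

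SCRG1, first described as a transcript raised in scrapie-infected brain, had 2, 4 and 13 estimated reads in GW0742 replicates 1, 2 and 3. It had 2, 1 and 3 reads in DMSO replicates 1, 2 and 3. GW0742 replicate 3 alone held 68.4% of the GW0742 reads, and the groups overlapped. The ratio of read shares was 3.42 (exact binomial 95% interval 1.31 to 10.5, counting error only, which leaves out the spread between libraries). In edgeR without a filter the log2 fold change was 1.68 ± 0.75 (SE, adjusted p = 0.382), and without GW0742 replicate 3 it was 0.65 (adjusted p = 0.743).

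CYTL1, a small secreted protein of cartilage, had 5, 4 and 7 estimated reads in GW0742 replicates 1, 2 and 3, against 3, 14 and 2 reads in DMSO replicates 1, 2 and 3. DMSO replicate 2 held 73.7% of the DMSO reads, and the GW0742 libraries lay between it and the other DMSO libraries. In edgeR without a filter the log2 fold change was -0.21 ± 0.79 (SE, adjusted p = 0.943). Without DMSO replicate 2 it was 1.23 (adjusted p = 0.385), so that library decided its direction.

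**Figure D3:**
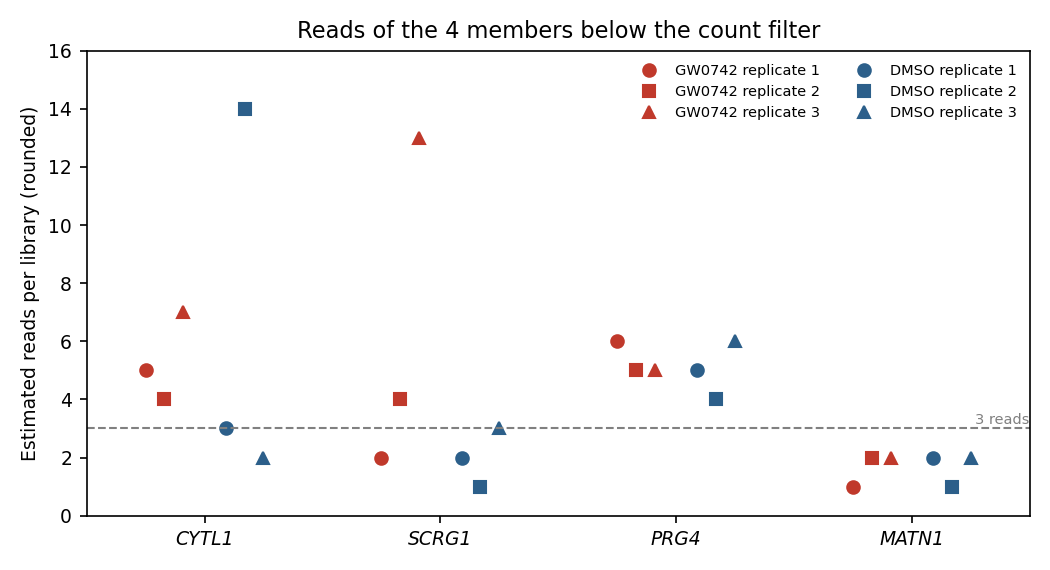
Rounded estimated reads per library (vertical, from 0) of the 4 genes below the count filter, GW0742 in red to the left of DMSO in blue; the dashed line marks 3 reads. CYTL1 reaches 14 reads in DMSO replicate 2 and SCRG1 reaches 13 reads in GW0742 replicate 3, while PRG4 stays between 4 and 6 and MATN1 between 1 and 2.

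GW0742 replicate 1 was the highest of the 6 libraries in RPKM for 6 of the 10 genes (COMP, MATN4, MATN2, CILP2, CILP and PRG4). GW0742 replicate 3 was the highest for 3 (MATN3, MATN1 and SCRG1) and DMSO replicate 2 for CYTL1. No share over all models stands beside these counts, so they do not set the 10 genes apart. Summed levels of some cell type markers also lay apart between the groups. For endothelium 6 of the 8 listed markers were found, none under 0.1 RPKM in every library, and their summed level was 103 to 130 RPKM with GW0742 and 64.1 to 96.5 RPKM with DMSO. CLDN5 made up most of this sum, at a mean of 81.4 RPKM over the 6 libraries. PECAM1 followed at 9.91 RPKM. Of the 6 markers, 0 passed in edgeR (CLDN5 adjusted p = 0.209). All 6 were higher at an unadjusted p under 0.05 (7.93% of all models), and DESeq2 called 2 higher (1.46% of all models). For smooth muscle all 5 listed markers were found and summed to 4105 to 5105 RPKM with GW0742 and 5205 to 5581 RPKM with DMSO. TAGLN and ACTA2 made up most of this sum, at means of 2717 and 1897 RPKM over the 6 libraries. TAGLN had groups that overlapped (log2 -0.13, edgeR adjusted p = 0.638), as had MYH11 (log2 0.09). Of the 5, 0 passed in edgeR, 3 were lower at an unadjusted p under 0.05 (8.91% of all models) and DESeq2 called 2 lower (1.65%). The 8 chondrocyte markers, MATN1 among them, summed to 315 to 329 RPKM with GW0742 and 371 to 390 RPKM with DMSO. COL11A1, COL2A1 and ACAN made up most of this sum, and COL2A1 had groups that overlapped. All 6 tested chondrocyte markers had log2 values below 0. Of these, 1 (ACAN) passed in edgeR (0.0778% of all models lower), and DESeq2 called 2 lower (1.65%). For the lining of synovial joints, where PRG4 is made, 2 of 4 markers (CLIC5 and VCAM1) were found and summed to 4.56 to 5.34 RPKM with GW0742 and 2.67 to 3.55 RPKM with DMSO. Of these VCAM1 was higher (fold 2.06, edgeR adjusted p = 0.0419), against 0.184% of all models higher in edgeR. DESeq2 also called VCAM1 higher (adjusted p = 0.000378, 1.46% of all models). CLIC5 had groups that overlapped (fold 1.04, edgeR adjusted p = 0.909). In edgeR without a filter VCAM1 did not pass (adjusted p = 0.0840), and it was not followed in the fits with left-out libraries. For each of these lists the summed levels of the groups did not overlap, also with reads at the 1 deposited length. Groups that did not overlap were seen in 23.4% of all tested models, and the sums carry no test. The sums of the tendon, skeletal muscle, adipocyte, keratinocyte and leukocyte lists overlapped between the groups, in RPKM and at the deposited length. For fibroblasts or perichondrium 5 of 8 markers were found. They summed to 14123 to 14990 RPKM with GW0742 and 15002 to 15472 RPKM with DMSO, whereas at the deposited length these groups overlapped. VIM and COL1A2 made up most of this sum. Of the 5, 0 passed in edgeR, 2 were lower and 1 higher at an unadjusted p under 0.05 (8.91% and 7.93% of all models). The 1 higher was POSTN (log2 0.84, edgeR adjusted p = 0.129). DESeq2 called 1 lower, THY1 (log2 -0.28, adjusted p = 0.000519, 1.65% of all models). The part of these lists in the values of MATN4 and MATN2 was not tested.

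Among the thrombospondin relatives of COMP, COMP was close in level to THBS3 and THBS2 and far below THBS1. COMP averaged 35.7 ± 3.38 RPKM with GW0742 and 33.6 ± 2.21 RPKM with DMSO (SD, n = 3 each). THBS3, the other pentameric thrombospondin well measured here, stood at 42.1 RPKM with GW0742 and 42.4 RPKM with DMSO. THBS1, a trimeric activator of latent TGF-beta, stood at 113 ± 20.5 times the COMP level in RPKM with GW0742 and 115 ± 6.44 times with DMSO (SD, n = 3 each). With reads scaled to the 1 deposited length of each model the ratio was 56.1 ± 7.08 with GW0742 and 56.7 ± 2.73 with DMSO, so the size of the gap depends on the length used. THBS4, a pentameric thrombospondin of tendon and muscle, was listed at 0 in 5 of the 6 libraries.

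Of the 3 tested thrombospondins, 0 passed in edgeR, with 1 at an unadjusted p under 0.05 and 1 called by DESeq2, both lower (8.91% and 1.65% of all models). That was THBS2, an inhibitor of angiogenesis, with 33.8, 29.1 and 30.2 RPKM in GW0742 replicates 1, 2 and 3, against 41.2, 38.4 and 39.5 RPKM in DMSO replicates 1, 2 and 3. All GW0742 libraries lay below all DMSO libraries. The log2 fold change was -0.38 ± 0.07 (SE, edgeR adjusted p = 0.0764), and DESeq2 called it lower (adjusted p = 0.000559). The list median was -0.04.

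Proteases known to cleave COMP, matrilins or lubricin had log2 values above 0. Of 11 tested, 0 passed in edgeR, 8 were higher at an unadjusted p under 0.05 (7.93% of all models) and 6 were called higher by DESeq2, against 1.46% of all models called higher by DESeq2. The median of the 11 log2 values was 0.79, beside -0.0015 over all tested models. This list was drawn up with earlier results of these data known and is no independent support for a direction. The largest values were those of the collagenases MMP13 (log2 3.29 ± 0.54, edgeR adjusted p = 0.0609) and MMP1 (log2 2.00 ± 0.37, edgeR adjusted p = 0.0730). MMP13 passed without GW0742 replicate 3, its lowest GW0742 library (log2 3.68, adjusted p = 0.00983), and DESeq2 called MMP13 and MMP1. With each library left out in turn, the adjusted p of MMP13 ranged from 0.00983 to 0.243. By level the leading proteases were the lysosomal CTSB, at 219 RPKM with GW0742 and 212 RPKM with DMSO, and CTSK, a collagen-cleaving cathepsin. CTSK stood at 113 RPKM with GW0742 and 88.4 RPKM with DMSO (log2 0.32 ± 0.06, edgeR adjusted p = 0.0776), and DESeq2 called it.

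ADAMTS7 and ADAMTS12 are among the proteases known to bind and degrade COMP in human and mouse. ADAMTS7, singled out after its values were seen, had 13.6, 18.4 and 15.2 CPM in GW0742 replicates 1, 2 and 3, against 6.94, 9.91 and 8.40 CPM in DMSO replicates 1, 2 and 3. Every GW0742 library was above every DMSO library. The log2 fold change was 0.91 ± 0.17 (SE, edgeR adjusted p = 0.0692), which did not pass, while DESeq2 called it higher (adjusted p = 0.000839). Over 12 alternative fits its log2 value stayed between 0.61 and 1.04. With each library left out in turn, the edgeR adjusted p of ADAMTS7 ranged from 0.0789 to 0.273, so it passed in none of these fits. ADAMTS12 had 4.86 ± 1.20 CPM with GW0742 and 4.43 ± 0.52 CPM with DMSO (SD, n = 3 each), and its groups overlapped. The COMP transcript had groups that overlapped, as given above, and the COMP protein and its cleavage were not measured here.

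**Figure D4:**
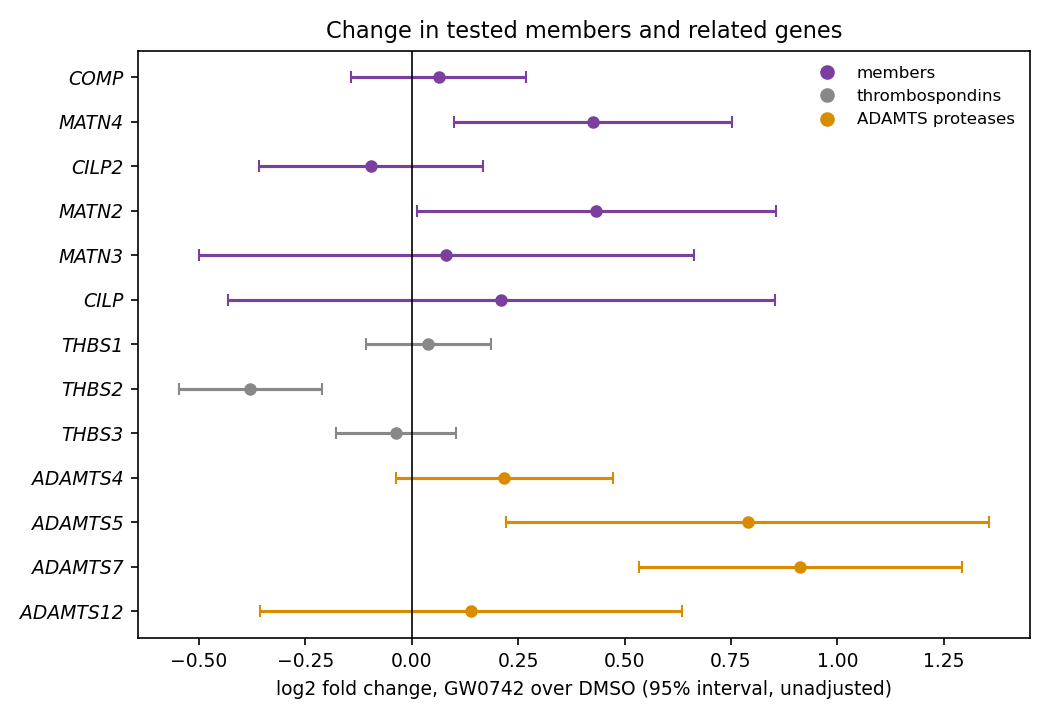
Log2 fold change, GW0742 over DMSO (horizontal), with unadjusted 95% intervals from edgeR, for the 6 tested members in purple, thrombospondins in grey and ADAMTS proteases in orange. The interval of COMP spans 0, those of MATN4 and MATN2 lie above 0 before adjustment, and ADAMTS7 lies at 0.91.

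Among the cartilage fibril and proteoglycan genes that bind the members, 1 of 13 tested fell in edgeR (ACAN), 12 did not pass and 0 rose, with a list median of -0.13. The background over all models was 0.0778% lower. At an unadjusted p under 0.05, 3 were lower and 1 higher (8.91% and 7.93% of all models). The 1 higher was DCN, also singled out after its values were seen (log2 0.39 ± 0.13 SE, edgeR adjusted p = 0.194). Its groups did not overlap. DESeq2 called 2 of the 13 lower, against 1.65% of all models. These were ACAN and COL11A1, a chain of type XI collagen that was singled out after its values were seen (log2 -0.28 ± 0.07 SE, edgeR adjusted p = 0.114, DESeq2 adjusted p = 0.00683). ACAN, the large proteoglycan of cartilage to which matrilins attach, had 583, 589 and 558 CPM in GW0742 replicates 1, 2 and 3, against 853, 810 and 785 CPM in DMSO replicates 1, 2 and 3. The groups were well apart (log2 -0.50 ± 0.06 SE, edgeR adjusted p = 0.0185), though ACAN no longer passed when GW0742 replicate 1 (adjusted p = 0.105), DMSO replicate 1 (0.101) or DMSO replicate 3 (0.0815) was left out, in limma on log2 RPKM (adjusted p = 0.0648 and 0.0690) and with the replicate number as a block (adjusted p = 0.0990). COL9A1, a chain of the type IX collagen that COMP and matrilins bind, had 1.13 ± 0.16 CPM with GW0742 and 1.74 ± 0.11 CPM with DMSO (log2 -0.62 ± 0.23 SE, edgeR adjusted p = 0.236). The most abundant partners, the small leucine-rich proteoglycans BGN and FMOD, had log2 values of -0.06 ± 0.08 and -0.02 ± 0.05 (SE).

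Of 8 tested genes for other secreted cartilage proteins, 0 passed in edgeR, 3 had an unadjusted p under 0.05 (16.8% of all models), and DESeq2 called 1 higher and 1 lower (1.46% and 1.65% of all models). CHI3L1, a chitinase-like glycoprotein of chondrocytes, had 16.3, 21.3 and 9.47 CPM in GW0742 replicates 1, 2 and 3, against 5.94, 7.66 and 6.66 CPM in DMSO replicates 1, 2 and 3 (log2 1.22 ± 0.27 SE, edgeR adjusted p = 0.0983). It passed without GW0742 replicate 3, the lowest of its group (adjusted p = 0.0292). That fit called 54 models higher and 47 lower, against 26 and 11 with all libraries. With each library left out in turn, the adjusted p of CHI3L1 ranged from 0.0292 to 0.342. CLEC3B, the tetranectin gene, had 0.153, 0.249 and 0.719 CPM in GW0742 replicates 1, 2 and 3, against 3.26, 1.05 and 5.58 CPM in DMSO replicates 1, 2 and 3 (log2 -3.10 ± 0.69 SE, edgeR adjusted p = 0.0978). Without GW0742 replicate 3 the log2 value of CLEC3B was -3.97, and without DMSO replicate 3 it was -2.50. DESeq2 called both genes. The most abundant genes of this list were HTRA1, a serine protease of cartilage matrix, and WIF1, a Wnt inhibitor, with log2 values of -0.06 ± 0.065 and -0.09 ± 0.09 (SE). VWA1, a pericellular protein with the domain type of the matrilins, was singled out after its values were seen. It had 6.28, 10.23 and 8.49 CPM in GW0742 replicates 1, 2 and 3, against 4.33, 4.88 and 5.52 CPM in DMSO replicates 1, 2 and 3 (log2 0.77 ± 0.21 SE, edgeR adjusted p = 0.130), and its groups did not overlap.

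Cartilage transcription factors and cell surface partners did not pass. Of 7 tested transcription factors 0 passed in edgeR, with 1 at an unadjusted p under 0.05 (16.8% of all models), 0 in DESeq2 (3.12% of all models) and a list median of -0.08. RUNX2, a factor of chondrocyte hypertrophy, had 6.01 ± 0.91 CPM with GW0742 and 3.76 ± 0.41 CPM with DMSO (log2 0.68 ± 0.19 SE, edgeR adjusted p = 0.139), and NFATC1, the most abundant, had a log2 value of -0.08 ± 0.07. TRPS1, a GATA-type repressor of growth plate cartilage, had 2.04 ± 1.11 CPM with GW0742 and 4.03 ± 1.92 CPM with DMSO (log2 -0.95 ± 0.44 SE, edgeR adjusted p = 0.327). Of 7 tested receptors and integrins 0 passed in edgeR, with 1 at an unadjusted p under 0.05, 0 in DESeq2 (the same shares of all models apply) and a list median of -0.0041. That 1 was CD44, the hyaluronan receptor to which lubricin also binds (log2 0.19 ± 0.07 SE, edgeR adjusted p = 0.238). CD47, a thrombospondin receptor, and the integrin chains ITGB1 and ITGA5 had log2 values of -0.20, -0.10 and 0.08. The value of ITGB1 was 0.21 in limma on RPKM, and its implied length differed by 1.39-fold between libraries.

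**Figure D5:**
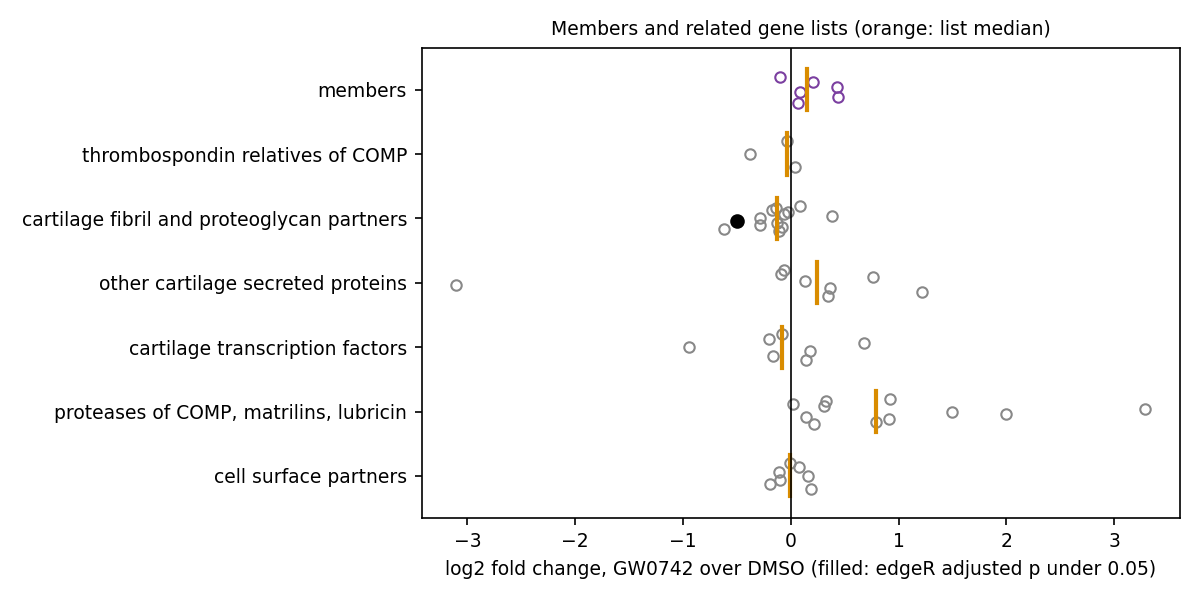
Log2 fold change, GW0742 over DMSO (horizontal), of each tested gene (circles) in the set of 10 and in 6 related lists (rows), with orange bars at list medians and filled circles for an edgeR adjusted p under 0.05. The filled circle is ACAN; the 6 tested members lie between -0.10 and 0.43 and the 11 proteases lie above 0.

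For the pair of members with the highest RPKM, the named genes with the most similar pattern across libraries were sought among 6278 models of at least 10 CPM. For COMP these were ALKBH7, ASNSD1 and FOXP1, with Pearson's r of log2 CPM of 0.994, 0.990 and 0.977 over 6 libraries. For MATN4 they were ATP6V1F, KPNA1 and HERC3, with r of 0.990, 0.988 and 0.988 over 6 libraries. With 6 points from 2 groups, r was above 0.9 for 35 models with COMP and for 119 with MATN4, so these names are a description only.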

How the data were processed

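Per the file headers, the authors deposited an estimated count of reads, an RPKM value and a model length for each gene model and library, and a series table that repeats the RPKM values of the authors. The build, Sscrofa10.2, comes from the submitters' processing notes; the sources used here name no aligner, counting program or strand setting. Libraries were made from poly(A)-selected, fragmented mRNA for the Ion Proton, per the labels' protocols. Estimated counts were rounded, and 99.7% of values above 0 were fractional, so reads shared with near-identical models may have been split, and reads of overlapping genes on opposite strands may not be told apart. A gene name table named 11147 of 19670 models and RefSeq identifiers 567 more.

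The test was edgeR's quasi-likelihood test (version 4.0.16, R 4.3.3) after filterByExpr with a minimum count of 10 and TMM scaling, without a block, with Benjamini-Hochberg adjustment over all 14146 models. The SE is the log2 value over the root of F, and 95% intervals use its degrees of freedom and are unadjusted. Exact binomial intervals and the floor of 3 reads (0.177 to 0.228 CPM) cover counting error only. The tests were checked on simulated data, which cannot show whether the libraries of a group were cultured apart.

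Members and lists were chosen with earlier results of these data known. Named were the members, 4 agonist controls, and from each list the members past the threshold, the 2 with the highest RPKM and the 2 with the largest change at 1 CPM or more. Alternatives were DESeq2 1.42.0, median-of-ratios scaling, no filter, left-out libraries, a replicate block, limma 3.58.1 on log2 of RPKM plus 1 or 0.1, an adjusted p of 0.01 and a 2-fold minimum. Sums of markers and the THBS1 to COMP ratio were also computed from reads at the 1 deposited length of each model, an alternative added after seeing the data.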

Additional observations from a re-analysis of the deposited data

How the results depend on the processing

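The number of members past the threshold was 0 in each of 12 alternative fits, and 69 log2 values of members kept their direction and their side of the threshold. The 2 stricter thresholds reuse the same fit and could call no more members. The 3 that turned had small values: leaving out 1 library gave COMP -0.024 to 0.12 and MATN3 -0.040 to 0.24. The count of models higher was 26 and of models lower 11. DESeq2 gave 207 and 234, no filter 13 and 3 (over 19499 models), and an adjusted p under 0.01 gave 6 and 0, with 1260 lower at an unadjusted p under 0.05. A 2-fold minimum left 4 lower. With 1 library fewer in each fit, between 6 and 54 models were higher and between 0 and 47 lower. On log2 of RPKM plus 1, limma gave 19 higher and 3 lower, and plus 0.1 it gave 17 and 4, with 894 and 886 lower at an unadjusted p under 0.05. With the replicate block 10 models were higher and 0 lower (1102 before adjustment, at p under 0.05). Replicates that share a number did not deviate together, with correlations of -0.00020, -0.038 and -0.099 for numbers 1, 2 and 3, so the number was not taken to pair them. For other named genes, limma gave ITGB1 0.21 with both pseudocounts and FMOD 0.0015. Leaving out 1 library gave THBS1 -0.0025 to 0.071, THBS3 -0.076 to 0.011, BGN -0.13 to 0.024 and CTSB -0.022 to 0.075. It also gave CYTL1 without a filter -0.68 to 1.23, in fits added after seeing the data. The cause of these shifts was not tested. Each member is 1 model, so no models were summed. Depth limits MATN1, PRG4, CYTL1 and SCRG1, at 1 to 14 reads per library.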
